A study of Mus musculus with 16 samples.

Results

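Of the 16251 probes on the array that are described as long intergenic noncoding RNA (lincRNA), 2589 were detected in part of the 16 mouse hearts, which is 15.9% of them. The probes were chosen by the detection flag of the scanner software: a probe had to be well above background on each of the 4 arrays of some group, but not on all 16 arrays. By the same flag 13.1% of the other spots, and 13.9% of all spots, were detected in part. The 2589 probes lie in 1848 of the 4622 lincRNA intervals of the array design, 1281 of them on the forward strand and 1308 on the reverse strand. A further 3520 lincRNA probes were detected on all 16 arrays, 5543 on some arrays but on all 4 of no group, and 4599 on no array. Detection in the 4 groups chose these probes, so their differences between the groups are given below as a description, without a test.

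The hearts came from C57BL/6 mice of a social defeat model of posttraumatic stress disorder, in which a mouse is exposed to an aggressor mouse. Each of the 16 hearts was read on its own 1-colour Agilent oligonucleotide array from total RNA labelled with the dye Cy3, and there were 4 hearts in each of 4 groups. Exposure lasted 1 day in T1R1, 2 days in T2R1 and 3 days in T3R1, each with 1 day of rest before collection. Controls were kept in the same kind of mesh box with no aggressor; all 4 belong to the arm of 2 days, so neither T1R1 nor T3R1 has a control of equal length. A protocol text common to all samples speaks of 5 or 10 days, and the durations of the group labels were used here. The labels give no age, and heart tissue holds many cell types, so that fewer cells of a type and less RNA per cell cannot be told apart.

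Long intergenic noncoding RNAs are transcripts that lie between protein-coding genes, are spliced and carry a poly(A) tail much as messenger RNA does, and encode no known protein. Many are kept in the nucleus at low copy number and act on chromatin or on the transcription of genes near them, and others are by-products of transcription with no known role. In the heart some are needed for development and others change in hypertrophy and heart failure. On this array they are named by a chromosome interval and a strand, and most have no gene name.

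The probes are 60 bases long. Those of 12 members that carry the patterns described below are printed 5′ to 3′ with their position in the mouse build mm9 of the array design, in lower case, and capitals mark the letters AATAAA, the poly(A) signal, where a probe holds them. The first 8 were detected on every array of 1 group and on no array of another.
A_30_P01018635, chr6:121036930-121036989, reverse strand: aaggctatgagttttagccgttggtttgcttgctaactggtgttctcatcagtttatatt
A_30_P01032122, chrX:148837881-148837940, forward strand: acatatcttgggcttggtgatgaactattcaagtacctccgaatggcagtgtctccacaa
A_30_P01031963, chr8:123649911-123649970, reverse strand: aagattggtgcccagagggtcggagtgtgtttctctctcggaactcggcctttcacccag
A_30_P01033054, chr5:35898839-35898898, forward strand: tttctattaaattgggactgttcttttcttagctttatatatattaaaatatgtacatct
A_30_P01017487, chr5:120277080-120277139, forward strand: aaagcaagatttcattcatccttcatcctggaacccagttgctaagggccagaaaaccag
A_30_P01029047, chr1:75079363-75079422, forward strand: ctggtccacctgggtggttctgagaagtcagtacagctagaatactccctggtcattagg
A_30_P01031876, chr11:50996749-50996808, reverse strand: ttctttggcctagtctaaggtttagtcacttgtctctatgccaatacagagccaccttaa
A_30_P01028664, chr10:59383133-59383192, reverse strand: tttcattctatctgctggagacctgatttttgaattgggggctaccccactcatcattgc
A_30_P01018593, chr9:14484650-14484709, forward strand: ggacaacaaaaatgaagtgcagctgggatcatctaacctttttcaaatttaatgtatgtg
A_30_P01020074, chr2:31002150-31002209, forward strand: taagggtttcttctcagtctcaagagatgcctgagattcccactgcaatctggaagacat
A_30_P01021358, chr17:10069540-10069599, forward strand: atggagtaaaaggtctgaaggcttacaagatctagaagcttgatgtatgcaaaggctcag
A_30_P01032197, chr17:88238612-88238671, reverse strand: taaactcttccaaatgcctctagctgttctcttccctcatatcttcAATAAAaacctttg

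Each of these 12 sequences occurs 1 time on the array. AATAAA was in 72 of the 2589 probes, 2.78%, against 4.18% of the lincRNA probes detected on all 16 arrays and 3.92% of all lincRNA probes. Its reverse complement TTTATT was in 2.94%, against 3.03% of all lincRNA probes. The median GC content was 45.0% in the partly detected and in the always-detected probes, and 41.7% in the probes detected on no array. The letters describe the probes, and nothing about the ends of the transcripts was tested.

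The detection of these probes differed most between single arrays. On T1R1 replicate 3, 262 of the 2589 probes (10.1%) were well above background, against 2489, 2552 and 2019 on the other T1R1 arrays. The control arrays had 2548, 2233, 2222 and 1950, the T2R1 arrays 2444, 2488, 2072 and 2562, and the T3R1 arrays 1375, 2179, 2313 and 2324. T1R1 replicate 3 thus lay below every other array, and T3R1 replicate 1 was the next lowest.

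The lowest signal that counted as well above background was 40.2 scanner units on T1R1 replicate 3, while 15 arrays had limits from 10.8 to 19.6. The median signal of the 2589 probes on T1R1 replicate 3 was 27.8 scanner units, below that limit, while the rest of T1R1 had medians from 32.0 to 36.4. Of the 2589 probes, 2327 were missing on T1R1 replicate 3, and 882 were missing there alone. Without T1R1 replicate 3 the same rule gave 1927 probes, of which 1707 are among the 2589.

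**Figure D1:**
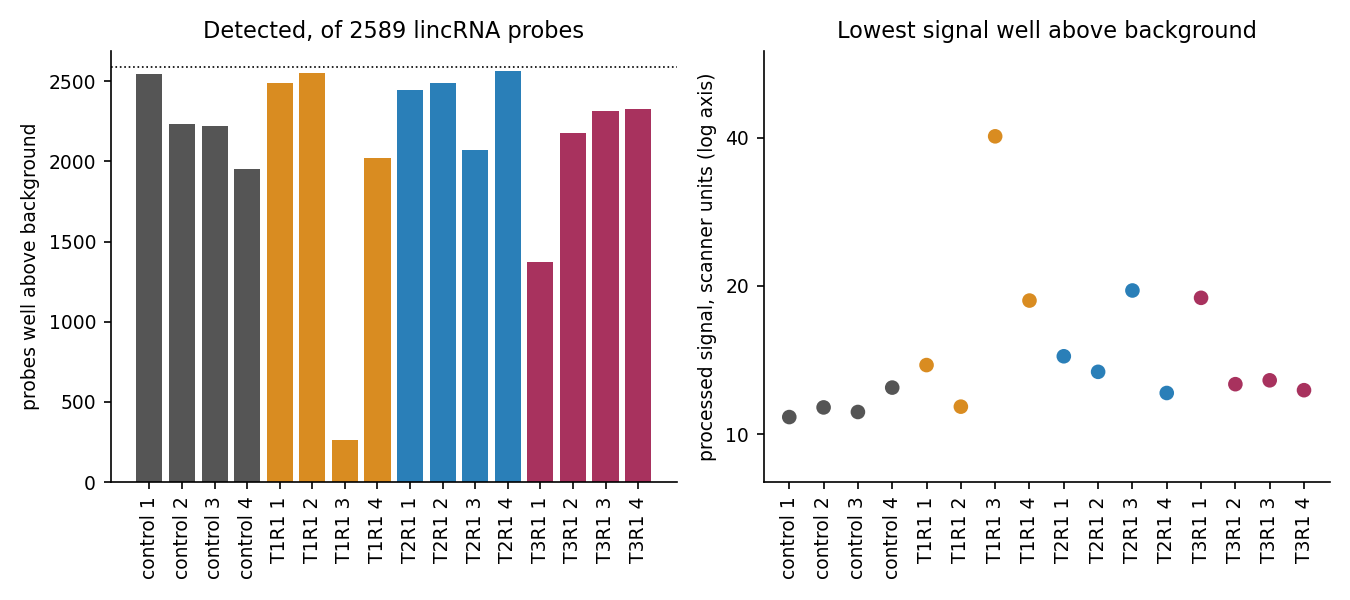
The left panel shows, for each of the 16 arrays (1 heart each, coloured by group), how many of the 2589 lincRNA probes were well above background, with the dotted line at 2589. The right panel shows the lowest processed signal marked as well above background on each array, in scanner units on a log axis; T1R1 replicate 3 has the fewest detected probes, 262, and the highest limit, 40.2.

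Levels are given from here on as the log2 of the processed signal minus the 75th percentile of its array. The 2589 probes were dim: their mean level over 16 arrays had a median of -3.58 and ran from -5.16 to -1.43, while the lincRNA probes detected on all arrays had a median of -1.33. Of the partly detected probes, 1661 were brighter on average than the dimmest always-detected probe, and 0 were brighter than the median one. The median SD within groups was 0.353 in the partly detected probes and 0.213 in the always-detected ones. Just inside the rule, 1005 probes were missing on 1 array, with a median level of -3.09. Just outside it, 25 lincRNA probes were detected on 3 arrays of every group, with levels from -4.22 to -3.68.

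The largest pattern held 942 probes (36.4%) that were detected on all arrays of control, T2R1 and T3R1 but not on all of T1R1. Another 549 (21.2%) were complete in T2R1 alone, 352 in control and T2R1, 203 in control alone, 160 in control and T3R1, 114 in T3R1 alone and 25 in T1R1 alone. T2R1 was complete for 2040 probes, control for 1786, T3R1 for 1329 and T1R1 for 199. When the rule was applied without T1R1 replicate 3, the pattern of control, T2R1 and T3R1 fell to 60 probes and T2R1 alone to 163. T1R1 and T2R1 together rose from 27 to 413 probes, T1R1 alone from 25 to 245, and T1R1 was complete for 1325. The place of T1R1 in these patterns therefore rested on 1 array. The patterns were not counted over the other spots, so they are not shown to be particular to lincRNA probes.

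**Figure D2:**
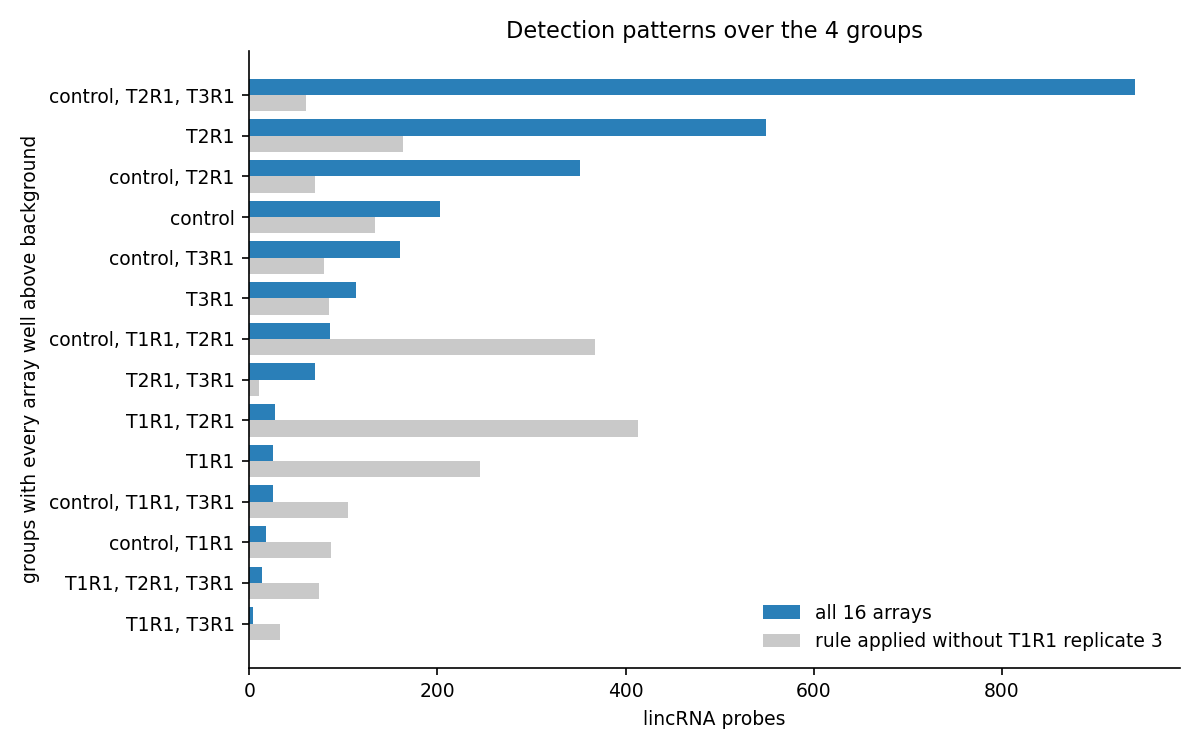
Each pair of bars counts the lincRNA probes that were well above background on every array of the groups named on the left and not on every array of the other groups. Blue bars use all 16 arrays and grey bars the rule applied without T1R1 replicate 3; the longest blue bar, 942 probes, becomes 60, and T1R1 with T2R1 goes from 27 to 413.

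The sharpest contrast was in 109 probes of 104 intervals that were detected on every array of 1 group and on no array of another. Such probes made up 0.671% of all lincRNA probes, 0.555% of the other spots on the array and 0.587% of all spots. The most frequent pair was T2R1 complete and T3R1 empty, with 65 probes, which is 0.4% of the lincRNA probes and 0.16% of the other spots. Control was empty where T2R1 was complete for 15 probes, and T3R1 was empty where control was complete for 11. No probe was complete in T3R1 and empty in control, or complete in T2R1 and empty in T1R1. Apart from T2R1 with T3R1, these pairs were not counted over the other spots. Without T1R1 replicate 3 the 109 probes became 166, and without control replicate 1 there were 223. Leaving out an array can only keep or add such probes, so the 109 were kept by construction. The size of such differences also depended on the background correction: the largest, 2.99 log2 units, was 0.84 with normexp and 0.77 in the authors' values, with the same direction.

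In the 65 probes complete in T2R1 and empty in T3R1 the median of the group means was -3.63 in T2R1, -3.84 in T1R1, -4.83 in control and -5.37 in T3R1. Of these probes, 37 were detected on 3 or 4 arrays of T1R1 and 10 on 3 or 4 arrays of control. T1R1 thus sat near T2R1, and control near T3R1. The arrays of control and T3R1 were on slide 1 and those of T1R1 and T2R1 on slide 2, so for these pairs slide and exposure cannot be told apart.

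**Figure D3:**
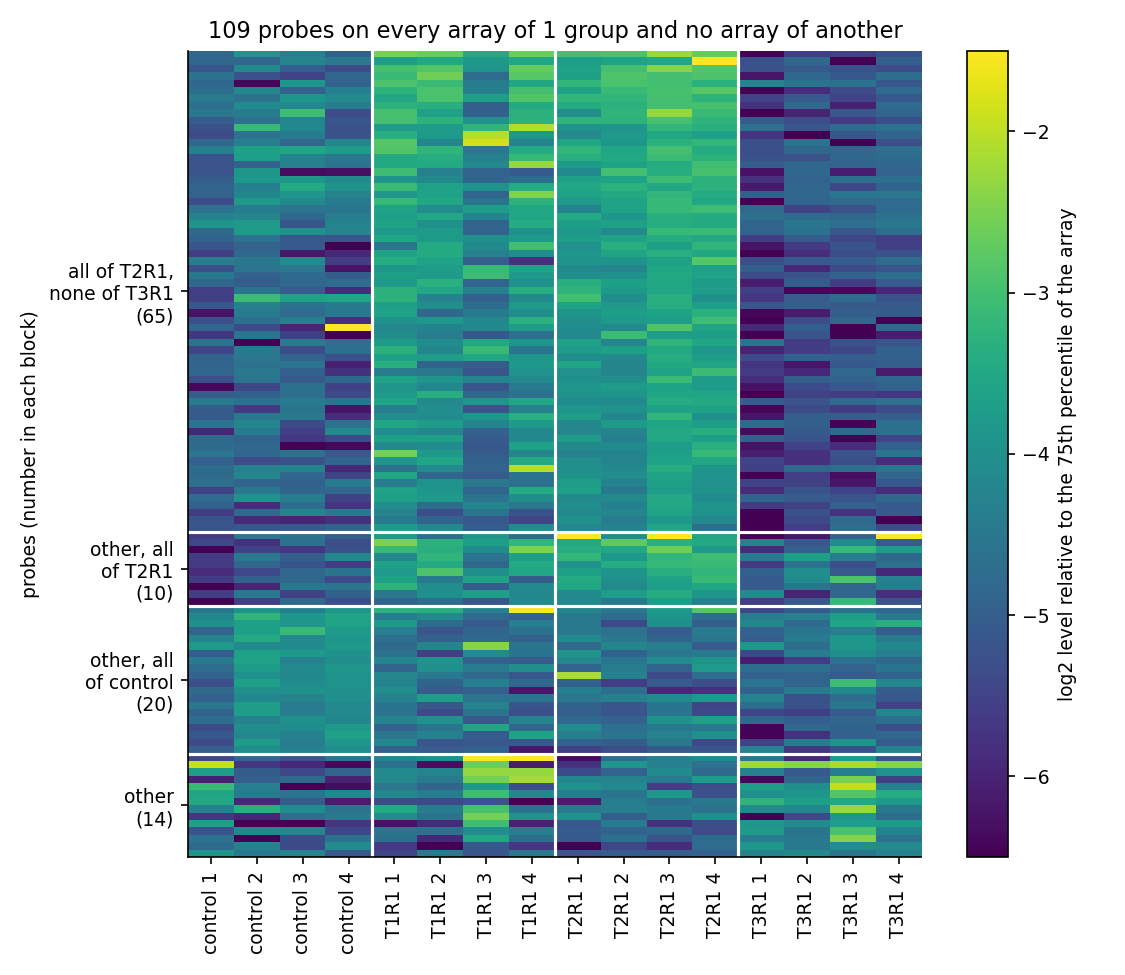
Rows are the 109 lincRNA probes detected on every array of 1 group and on no array of another, in 4 blocks by the groups concerned, and columns are the 16 arrays. The colour gives the level, log2 relative to the 75th percentile of the array; in the top block of 65 probes the T2R1 and most T1R1 arrays are brighter than the T3R1 and most control arrays.

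The interval chr6:121036929-121037581 on the reverse strand, 653 bases long, gave the largest difference of this kind. Its probe read -2.98, -2.94, -2.26 and -2.69 in T2R1 and -6.47, -5.58, -5.54 and -5.25 in T3R1, where it was above background on no array. T1R1 read -2.52, -2.66, -3.44 and -2.65 and control -4.81, -3.88, -4.32 and -4.95. T1R1 and T2R1 did not overlap control, and on this scale T2R1 was at least 4.05-fold higher than T3R1. For this bound and those that follow, values in the empty group under the lowest detected signal of their array were set to that signal. The bounds apply to the processed signal alone. With normexp and in the authors' values the difference of this probe was smaller than the bound, as given above. The nearest tested gene, Mical3, an enzyme that oxidises actin, lies 57191 bases away and read -2.29 ± 0.29 (SD, n = 4) in control and -2.15 ± 0.26 in T2R1.

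A second probe of the same interval, 134 bases away, was near background on nearly all arrays. It read from -5.68 to -3.67 in T2R1, between -5.15 and -4.87 in T1R1, from -6.72 to -6.30 in control and from -6.94 to -6.13 in T3R1. The groups on slide 2 were above those on slide 1 there too, and the remaining probe was above background on no array.

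The interval chr10:59382822-59383642, 821 bases on the reverse strand and 22125 bases from Dnajb12, a chaperone of the endoplasmic reticulum, held 2 members 166 bases apart. The first read -4.02, -3.23, -2.29 and -3.12 in T2R1, -6.56, -5.98, -5.14 and -4.86 in T3R1, -2.96, -3.63, -4.95 and -3.28 in T1R1 and -4.50, -4.45, -3.06 and -5.31 in control. The second, complete in T2R1 and empty in control, read -3.48, -2.75, -3.33 and -3.49 in T2R1 and -5.43, -5.76, -4.63 and -5.29 in control. T2R1 was at least 2.98-fold above T3R1 by the first probe, and control overlapped T3R1 in both.

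Of the remaining probes complete in T2R1 and empty in T3R1, the one in chr1:75075500-75102200 (forward) read from -3.62 to -2.80 in T2R1 and from -6.60 to -4.75 in T3R1, at least 3.06-fold apart. The one in chr11:50994911-51050704 (reverse) read from -3.78 to -3.25 in T2R1 and from -6.43 to -5.55 in T3R1, at least 2.24-fold apart. In both, T1R1 replicate 3 was the lowest T1R1 array, at -4.35 and -4.33, and the other T1R1 arrays lay among those of T2R1 or above them, between -3.53 and -2.94. The chromosome 11 interval had 4 other probes detected on no array and 1 detected on 1 array.

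In chr5:120269342-120279542 (forward), 54545 bases from Tbx5, a T-box transcription factor of heart development, 1 array enlarged the difference. T2R1 replicate 4 read -0.61 and the other T2R1 arrays -3.72, -3.59 and -3.51, and T3R1 read -5.28, -4.81, -6.84 and -4.96. The difference of 2.61 between the means was 1.86 without that array, and the bound with all arrays was 3.62-fold. A second member of this interval, 1089 bases away, was complete in control instead, with a mean of -3.73 there and -4.13 in T2R1.

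Another 2 of the first 8 probes also drew much of their difference from few arrays. In chrX:148803114-148851243 (forward) the probe was complete in T1R1 and empty in control, but T1R1 replicates 3 and 4 read 0.78 and -1.29 and replicates 1 and 2 read -4.27 and -4.02. Control read -5.44, -4.87, -5.16 and -4.57, T2R1 from -6.36 to -4.10 and T3R1 from -5.94 to -3.82. The T1R1 mean was at least 5.84-fold above control, and the difference of 2.81 was 1.82 without T1R1 replicate 3. Another member 63 bases away read between -3.01 and -2.67 in T1R1 and between -3.07 and -2.47 in T2R1, with no array standing out.

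In chr8:123649699-123649970 (reverse), 272 bases long and 6947 bases from Foxc2, a forkhead transcription factor of vessel and heart development, the probe was complete in T2R1 and empty in control. T2R1 read 0.03, -4.02, -1.20 and -3.55, T3R1 replicate 4 read 1.47 and the other T3R1 arrays between -6.46 and -4.93, and control read from -5.63 to -4.52. T2R1 was at least 6.08-fold higher than control, and the difference of 2.76 was 2.02 without T2R1 replicate 1. The highest arrays were T3R1 replicate 4 and T2R1 replicates 1 and 3. Neither of the 2 other probes of the interval, 60 and 133 bases away, was complete in any group.

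A set of 3 members was high in T3R1 together with control replicate 1. In chr5:35893909-35899497 (forward), 498 bases from Trmt44, a transfer RNA methyltransferase, the probe read -2.22, -2.40, -2.14 and -2.43 in T3R1 and -1.94 in control replicate 1. Control replicates 2 to 4 read -5.68, -5.93 and -6.39, T1R1 -4.61, -6.32, -2.64 and -6.09 and T2R1 -5.77, -3.88, -4.33 and -4.62. T3R1 was at least 3.47-fold above T1R1, in which it was detected on no array, although T1R1 replicate 3, at 49.2 scanner units, read nearly as high as T3R1 and above the lowest detected signal of its own array without carrying the flag.

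In chr17:10057283-10075014 (forward) the probe read -2.09, -2.88, -2.27 and -2.48 in T3R1 and -2.99 in control replicate 1, against -6.60, -6.40 and -6.05 in control replicates 2 to 4. T1R1 replicate 2, at -2.82, was the only other array in this range. A probe of the same interval 12102 bases away read -4.30, -5.16, -2.95 and -4.30 in T3R1, -4.10 in control replicate 1 and between -6.88 and -6.67 in control replicates 2 to 4. The remaining probe, 5403 bases away, was detected on no T3R1 array. It read from -5.18 to -4.73 in T3R1, within its range in T1R1, from -6.57 to -4.51. In chr6:134879009-134880130 (forward), 3526 bases from Cdkn1b, an inhibitor of cyclin-dependent kinases, the probe read from -2.80 to -1.67 in T3R1, -2.43 in control replicate 1 and from -5.91 to -4.77 in control replicates 2 to 4. Its 2 other probes did not share the pattern: both were highest on average in T1R1.

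The clearest case was chr9:14460976-14488051 (forward), 27076 bases long, because all of its 5 probes carried it. The member A_30_P01018593 read 0.19, 0.08, 0.38 and -0.13 in T3R1 and 0.38 in control replicate 1, against -2.46, -2.79 and -2.55 in control replicates 2 to 4. T1R1 read -2.39, -1.81, -3.05 and -2.91 and T2R1 -2.41, -0.95, -1.71 and -1.79. T3R1 did not overlap T1R1 or T2R1, and control replicate 1 read about as high as the highest T3R1 array.

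The other probes of this interval start within 217 bases of that member. Of them, A_30_P01020075 and A_30_P01025009 were detected on all 16 arrays and were not members. They correlated with the member at 0.994 and 0.964 over the arrays (Pearson), so they are not independent of it. The first read 1.06, 0.90, 1.29 and 0.79 in T3R1, 1.31 in control replicate 1, -2.10, -2.21 and -2.07 in control replicates 2 to 4, between -2.43 and -1.16 in T1R1 and between -1.60 and -0.13 in T2R1. In the limma fit over all 22763 features its T3R1 minus control difference was 2.28 ± 0.63 (SE, n = 4 each) and did not pass (adjusted p = 0.0757). Without control replicate 1 it was 3.13 ± 0.32 (limma, adjusted p = 6.48e-05). The interval was singled out after its values were seen, among them the high control replicate 1. The smaller p without that array is therefore a description and not a test. T3R1 and control were on 1 slide.

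The nearest tested gene to it was Fut4, an enzyme that adds fucose to cell surface sugars, 65173 bases away on the opposite strand. Fut4 read -2.28, -3.21, -2.93 and -3.17 in control, -3.85, -3.95, -4.21 and -3.35 in T2R1 and -2.23, -2.77, -2.64 and -2.89 in T3R1. It fell by 0.94 ± 0.27 (SE, n = 4 each) in T2R1 against control (limma, adjusted p = 0.0259), and its T3R1 difference of 0.26 did not pass (adjusted p = 0.587). The T2R1 call was lost without control replicate 1 (adjusted p = 0.0573), with normexp (0.0581) and without T2R1 replicate 1, 2 or 3 (up to 0.0807).

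Over all 2589 probes control replicate 1 resembled T3R1 more than the other controls. The correlation of its levels with the T3R1 arrays across the probes had a mean of 0.696, against 0.587 with the other control arrays. Control replicates 2, 3 and 4 had means of 0.677, 0.654 and 0.676 with the other controls and 0.557, 0.540 and 0.579 with T3R1. Within its own group T1R1 replicate 3 had the lowest mean of the 16 arrays, 0.379. These are correlations across probes of single arrays, which share probe effects, and carry no test. The 75th percentile of control replicate 1 was 547.5 scanner units, against 256.9, 272.8 and 265.9 in control replicates 2, 3 and 4. What sets control replicate 1 apart was not tested.

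The interval chr2:31001736-31006911 (forward), 64782 bases from Gpr107, a membrane protein of the Golgi, showed an on-or-off pattern that split groups. Its member read -6.51, -6.57, -0.58 and -0.84 in T2R1 and -6.37, -6.82, -1.77 and -1.43 in T3R1. It read -2.14, -1.13, -1.64 and -1.49 in control and -0.77, -0.98, -1.16 and -1.18 in T1R1. Replicates 1 and 2 of T2R1 and T3R1 were thus more than 4 log2 units below the other 12 arrays, with no value between -6.37 and -2.14.

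Neighbouring probes of the chromosome 2 interval did not share that split. The probe 89 bases away read -1.33, -1.53, -1.24 and -1.31 in T2R1 and -2.86, -2.52, -2.70 and -2.49 in T3R1, and the one 282 bases away read -2.03, -1.63, -1.70 and -1.82 in T2R1 and -2.32, -2.07, -2.10 and -2.06 in T3R1. The arrays at about -6.5 for the member were within 0.5 log2 units of the other arrays of their group for both neighbours. What sets these 4 arrays apart at the member probe was not tested.

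**Figure D4:**
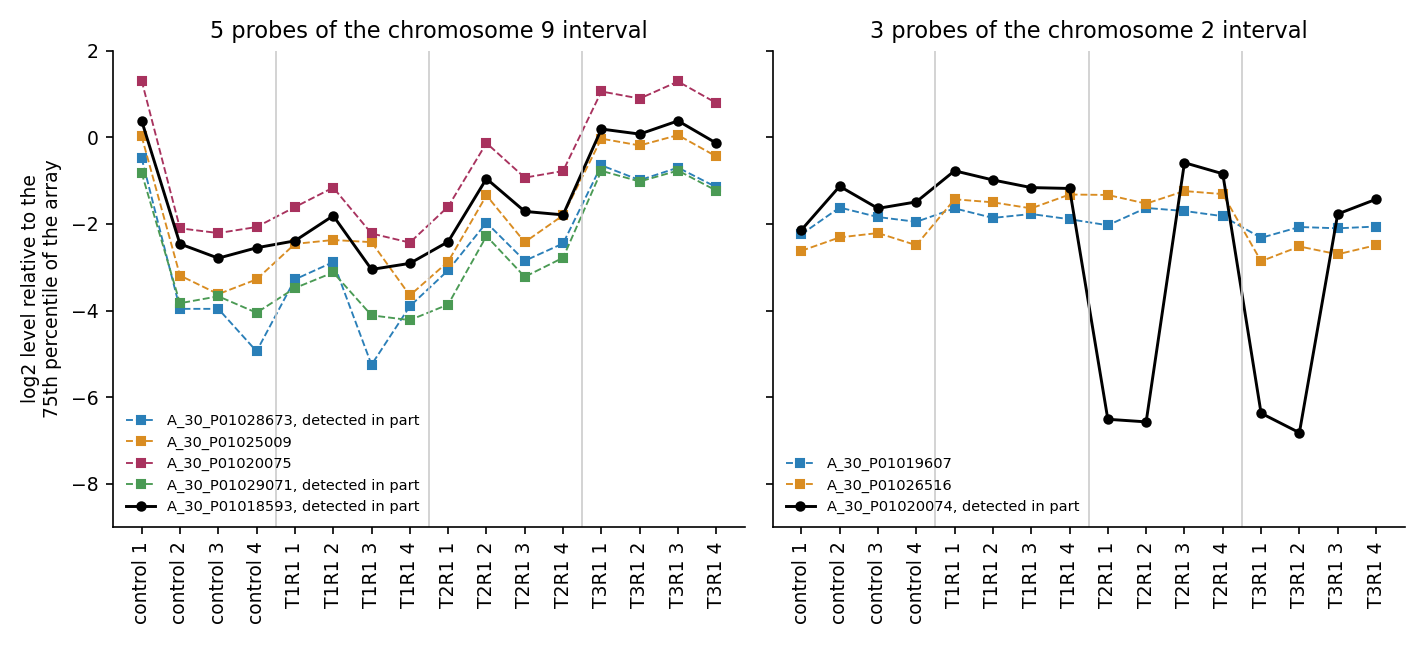
Levels on the 16 arrays, log2 relative to the 75th percentile of the array, of all 5 probes of the interval chr9 (left) and of the member and the 2 always-detected probes of the interval chr2 (right); black lines are the members printed above and grey lines part the groups. On the left the probes rise together in T3R1 and control replicate 1; on the right the member alone falls to between -6.82 and -6.37 on replicates 1 and 2 of T2R1 and T3R1.

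Several members complete in 1 group alone also owed much of their difference to 1 array. In chr15:96091428-96115684 (reverse) control replicate 3 read 0.08 and the other controls -4.04, -3.62 and -3.83, and in chr3:10088209-10089038 (forward) control replicate 3 read -0.10 and the others -3.97, -4.15 and -3.36. Without that array their differences from the other 12 arrays fell from 1.49 to 0.51 and from 1.44 to 0.51. Members of the same intervals 78, 72 and 76 bases away read -3.80, -4.27 and -3.83 on that array. So in both intervals the neighbouring probes showed no peak on control replicate 3.

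In chr17:71202950-71229883 (forward), 9262 bases from Tgif1, a homeobox repressor, T2R1 replicate 4 read 1.18 and the other T2R1 arrays -2.93, -3.02 and -3.04. The difference from the other 12 arrays was 2.35 with that array and 1.31 without it. In chr2:72818943-72826893 (forward), near Sp3, a zinc finger transcription factor, T2R1 replicate 1 read 0.79 and the other T2R1 arrays at most -3.47, and the T2R1 minus T1R1 difference was 1.78 with it and 0.66 without it.

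T1R1 replicates 3 and 4 were the highest T1R1 arrays at 2 more members. Both members, like that on chromosome X, were chosen as complete in T1R1. The lowest detected level on T1R1 replicate 3 was -2.93, so a high value on that array was set by the choice. In chr8:26428975-26490975 (reverse) they read -1.60 and -1.85, T1R1 replicates 1 and 2 read -3.59 and -4.51, and control read from -5.19 to -4.81. In chr3:84617945-84618316 (reverse) they read -1.77 and -2.20, with -3.87 and -3.87 in T1R1 replicates 1 and 2 and from -5.71 to -4.29 in control. These 2 arrays were also the highest at the chromosome X member described above, and at a probe 135 bases from the chromosome 3 member they read -2.49 and -2.16. At the probe 60 bases from it, detected on no T1R1 array, they read -5.03 and -6.28. All 4 T1R1 arrays were above all 4 controls at both members.

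By contrast, the member in chr1:175705225-175717250 (forward), 27519 bases from Ifi204, an interferon-inducible gene, was even within its group. T2R1 read -2.53, -2.69, -2.04 and -2.09, control from -4.72 to -4.32, T3R1 from -5.39 to -3.51 and T1R1 -2.57, -2.99, -4.93 and -3.72. T2R1 overlapped T1R1 only at T1R1 replicate 1, and its difference from the other 12 arrays stayed between 1.82 and 2.07 when any 1 array was left out. In chr6:40693617-40720167 (reverse) the member was complete in control, from -4.50 to -3.28, and detected on 1 array of T3R1, which read -6.49, -6.95, -4.76 and -4.34; the difference was -1.74.

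Of the 4 members that were brightest on average, chr9:14460976-14488051 was described above. In chr6:91928958-91936887 (reverse), the brightest of all, 15 arrays read between -1.77 and -0.97 and T1R1 replicate 3 read -3.18. In chr12:110003268-110030953 (forward), near Yy1, a zinc finger factor that binds Polycomb sites, T3R1 replicate 1 read -4.40 and the other arrays from -1.93 to -0.83, while the probe 60 bases away was bright on all arrays, from 2.97 to 3.67. In chr17:88225376-88238756 (reverse), whose probe holds AATAAA, T2R1 read from -1.33 to -0.87 and control from -2.51 to -1.88, and T1R1 replicate 3 read -2.80. Each of the 4 was missing on 1 array.

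Its interval, chosen through this member, had an always-detected probe 60 bases away. That probe read 0.74, 0.84, 0.73 and 0.80 in control, 1.24, 1.29, 1.22 and 1.33 in T1R1, 1.32, 1.39, 1.55 and 1.42 in T2R1 and 1.04, 1.08, 0.78 and 1.01 in T3R1. It rose by 0.50 ± 0.08 (SE, n = 4 each) in T1R1 (limma, adjusted p = 0.00226) and by 0.64 ± 0.08 in T2R1 (limma, adjusted p = 0.000296), and its T3R1 difference of 0.20 did not pass (adjusted p = 0.163). T1R1 replicate 3 was no exception at this brighter probe.

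A further 5 members carry a name other than an interval with a strand. One, A_30_P01026714, is named KCNQ1ot1, the antisense RNA of an imprinted potassium channel locus, and was detected on 4, 1, 4 and 3 arrays of control, T1R1, T2R1 and T3R1, with means of -4.18, -4.29, -3.81 and -4.34. Another 3 lie in chr17:12941161-12944859, with means between -3.56 and -2.45 in every group, and 1 in chr6:52032838-52033444, with means of -3.72, -3.14, -2.85 and -3.54. None of these 5 was complete in 1 group and empty in another.

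Members were spread over the chromosomes. Chromosome 12 had the largest share of its lincRNA probes among them, 19.5%, and chromosome 7 the smallest, 12.8%. Of the 1848 intervals, 1310 held 1 member, 538 held 2 or more, and the most in 1 interval was 7. In 869 intervals another probe was detected on all 16 arrays, and 249 loci had members on both strands. The median length of the intervals was 12580 bases, against 13080 for all lincRNA probes.

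The level of the members as a group moved with slide and exposure. The array medians of the 2589 probes were -4.01, -3.58, -3.69 and -3.75 in control, -3.23, -3.34, -3.47 and -3.37 in T1R1, -3.35, -3.33, -3.16 and -3.08 in T2R1 and -4.17, -3.96, -3.63 and -3.74 in T3R1. All arrays of T1R1 and T2R1 lay above all arrays of control and T3R1, and T1R1 replicate 3 was close to the other T1R1 arrays in level although few of its probes were detected. Relative to the other T1R1 arrays its median difference was -0.32 over the members and 0.03 over the always-detected lincRNA probes.

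The median T1R1 minus control difference was 0.42 over the members, 0.26 over the always-detected lincRNA probes and -0.01 over all 22763 tested features. For T2R1 minus control these were 0.61, 0.37 and 0.02, for T3R1 minus control -0.14, -0.12 and -0.08, and for T2R1 minus T1R1, on 1 slide, 0.16, 0.11 and 0.05. Of the members, 77.0% were higher on average in T1R1 than in control, 79.5% in T2R1 and 34.0% in T3R1. These shares were 72.3%, 74.1% and 28.5% of the always-detected lincRNA probes, and 49.2%, 52.6% and 38.4% of all tested features. The 3 exposures share the same controls.

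The scaling set the size and, for T1R1, the sign of these medians. Scaling to array medians moved the median of all features to -0.44 in T1R1 and -0.37 in T2R1, and the member medians were then -0.01 and 0.23. With quantile normalization they were -0.05 and 0.23, with the authors' values -0.01 and 0.09, and with normexp 0.16 and 0.22. Relative to all features the members were higher in T2R1 in each of these settings, and in T1R1 with 3 of the 5 scalings. Slide and exposure cannot be told apart in either comparison.

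**Figure D5:**
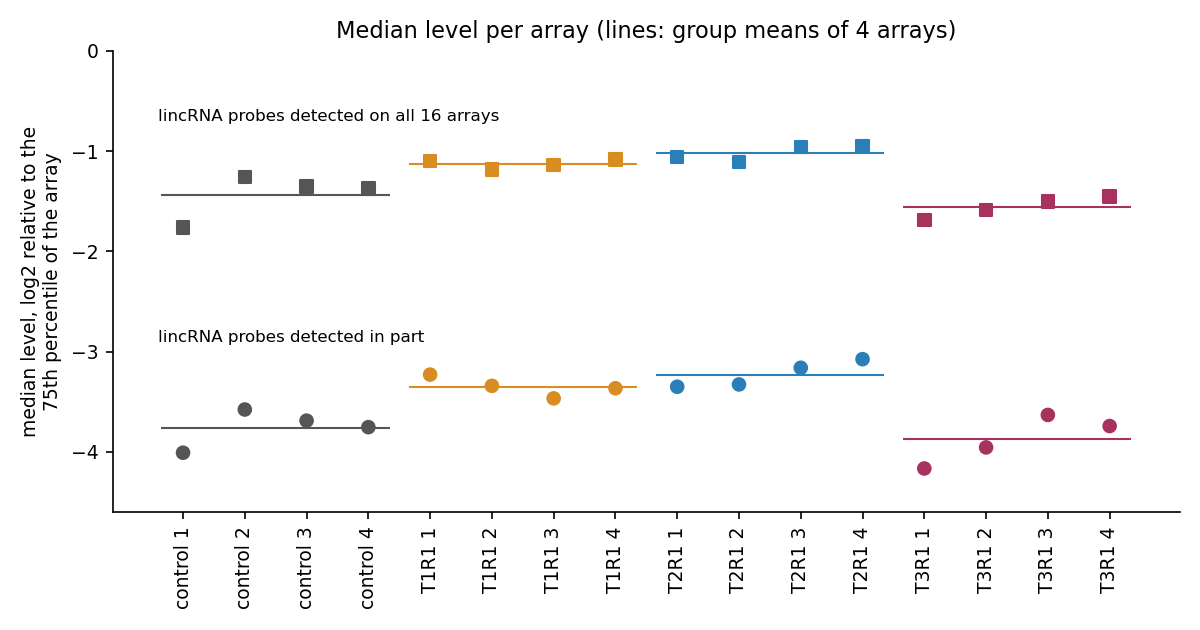
Median level on each array, log2 relative to the 75th percentile of the array, of the 2589 partly detected lincRNA probes (circles) and of the 3520 lincRNA probes detected on all 16 arrays (squares), with the mean of the 4 arrays of each group as a line. Circles lie between -3.47 and -3.08 in T1R1 and T2R1 and between -4.17 and -3.58 in control and T3R1, and the squares keep the same order of groups.

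A further measure came from the member intervals that also hold an always-detected probe. These intervals were chosen through a member of the same interval, by its detection in the groups. The calls below are therefore not independent of the rule. Of 851 such intervals on the same strand, represented in the limma fit by that probe, 206 were higher and 1 was lower in T1R1 than in control at an adjusted p under 0.05, which is 24.3%, against 9.85% of all 22763 features and 22.9% of all 3045 lincRNA intervals tested. In T2R1, 373 were higher and 6 lower, 44.5%, against 18.4% of all features and 41.6% of lincRNA intervals. In T3R1, 4 were higher and 0 lower, 0.47%, against 0.694% and 0.394%. On this scale the share lay near that of lincRNA intervals at large in each comparison, while with normexp it was 11.2% against 7.62% in T1R1 and 34.3% against 23.5% in T2R1. Between T2R1 and T1R1 limma called 0 of the 851 and 0 of all features, with 94 of the 851 and 1782 of all features at an unadjusted p under 0.05.

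The T3R1 count turned on control replicate 1. Without it 193 of the 851 intervals were called, 23 higher and 170 lower, which is 22.7%, against 20.1% of all lincRNA intervals. In T1R1 and T2R1 the counts without it were 228 and 355. With normexp and with quantile normalization the T1R1 count was 95 and 127. Under median scaling, which lowers every T1R1 and T2R1 difference from control alike, 49 were higher and 134 lower in T1R1 and 143 higher and 92 lower in T2R1. Of the 206 intervals called higher in T1R1 it called 49 higher, 0 lower and 157 not at all, and of the 373 in T2R1 143, 0 and 230.

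A set of 4 such intervals had the smallest p values in T1R1 and T2R1. The probe of chr13:62734450-62785325 (forward) read between -3.42 and -2.53 in control, -1.51, -1.53, -1.93 and -1.69 in T1R1, -1.43, -1.38, -1.29 and -1.36 in T2R1 and between -3.14 and -2.82 in T3R1. It rose by 1.37 ± 0.16 (SE, n = 4 each) in T1R1 (limma, adjusted p = 0.000668) and by 1.67 ± 0.16 in T2R1 (limma, adjusted p = 0.000126). The probes of chr5:33174092-33200792 (forward) and chr16:90008636-90015586 (forward) rose by 1.05 and 1.06 in T1R1 and by 1.16 and 1.19 in T2R1, and that of chr3:38320928-38341869 (forward) by 0.75 and 1.06, the first of which was lost with median scaling (limma, adjusted p = 0.0755). In none of the 4 did an array of T1R1 or T2R1 overlap control or T3R1, which is also the division by slide.

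In T3R1 the smallest p value was that of chr1:93812836-93816128 (forward), whose probe read 2.08, 1.60, 1.72 and 1.90 in T3R1 and 1.02, -0.34, -0.26 and -0.09 in control. It rose by 1.75 ± 0.23 (SE, n = 4 each; limma, adjusted p = 0.0098), within 1 slide, with control replicate 1 again between the other controls and T3R1. The probes of chr10:94900849-94928059 (reverse) and chr9:65376063-65390480 (reverse) rose by 0.78 and 0.65 (limma, adjusted p = 0.0267 and 0.0272). Of 23 alternatives, the call of chr1:93812836-93816128 was lost in 2, without control replicate 2 or 3 (adjusted p = 0.0523 and 0.0501), and the calls on chromosomes 10 and 9 were lost in 8 and 9. Those lost for both were median scaling, no filter on dim probes, the replicate block and leaving out control replicate 2, 3 or 4 or T3R1 replicate 1 or 3, at adjusted p between 0.0521 and 0.135. T2R1 was also above control at both, by 0.61 and 0.48 (limma, adjusted p = 0.00849 and 0.0126; 0.32 and 0.679 with median scaling).

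Members and the always-detected probe of their own interval moved together only weakly. Across 1239 members the correlation of the 2 differences from control was 0.26 in T1R1, 0.37 in T2R1 and 0.29 in T3R1 (Pearson). Across 175 members whose neighbouring gene had its probe inside the interval on the same strand it was 0.32, 0.26 and 0.45, and across 2185 members and their nearest gene 0.08, 0.06 and 0.11. The points share arrays and controls, and several share an interval, so these values carry no test.

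Neighbouring genes had probes of their own. A named gene that was tested lay within 100000 bases of 2185 members, at a median distance of 12080 bases, and these were 948 different genes, 810 of them protein-coding. In T1R1, 32 rose and 17 fell against control, 5.17%, against 7.03% of all 15721 named genes. In T2R1, 66 rose and 45 fell, 11.7% against 13.4%, and in T3R1, 8 rose and 0 fell, 0.844% against 0.833%. Between T2R1 and T1R1 limma called 0, with 63 at an unadjusted p under 0.05. The difference between these shares was not tested.

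The split of these counts into higher and lower moved with the scaling, and their number in T3R1 with control replicate 1. With normexp, quantile normalization and the authors' values the T1R1 calls were 13 higher and 27 lower, 15 and 45, and 23 and 57, and median scaling gave 9 and 506. For T2R1 they were 39 and 43, 44 and 65 with normexp and quantile normalization, and 21 and 426 with the median. Without control replicate 1, 327 neighbours were called in T3R1, 140 higher and 187 lower, 34.5% against 33.3% of named genes, and T1R1 and T2R1 had 146 and 200.

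Of the neighbours, Pax7, a paired box transcription factor of muscle stem cells, rose most clearly. It read -2.50, -1.97, -1.97 and -2.06 in control, -0.71, -1.15, -1.25 and -0.93 in T1R1, -0.96, -1.11, -0.71 and -0.99 in T2R1 and -2.70, -2.47, -2.49 and -2.31 in T3R1. It rose by 1.12 ± 0.15 (SE, n = 4 each) in T1R1 (limma, adjusted p = 0.000985) and by 1.18 in T2R1 (limma, adjusted p = 0.000296). Pou3f1, a POU domain transcription factor, rose by 0.72 and 0.95, and 4930404H24Rik, a transcript of unknown function, by 0.82 and 0.92, with no overlap between slides in either. Their T1R1 calls were lost with median scaling (limma adjusted p = 0.166 and 0.0552), while the 2 Pax7 calls held in all 23 alternatives. Pax7 did not overlap between slides either. None of the alternatives separates slide from exposure, so the 2 cannot be told apart for any of these neighbours. Actl7b, an actin-like protein of the testis, rose by 1.16 in T1R1 and 0.82 in T2R1, and its T2R1 call was lost with each of the 4 other scalings, at adjusted p from 0.108 to 0.193.

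In T3R1 the 3 neighbours with the smallest p were Strn, a signalling scaffold of heart muscle and neurons, Col6a2, a chain of collagen VI, and Fbln2, a matrix protein. Fbln2 read 5.35, 5.13, 5.33 and 4.95 in T3R1 and 4.76, 3.64, 3.95 and 3.98 in control, and rose by 1.11 ± 0.20 (SE, n = 4 each; limma, adjusted p = 0.0262). Col6a2 rose by 1.09 (adjusted p = 0.0252) and Strn by 0.67 (adjusted p = 0.0247). All 3 calls were lost with median scaling, without the filter on dim probes, with the replicate block and when control replicate 2, 3 or 4 or T3R1 replicate 1 or 3 was left out, at limma adjusted p between 0.0521 and 0.115, and that of Fbln2 also without T3R1 replicate 2 (0.0567). Col6a2 also rose by 0.71 in T2R1 (limma, adjusted p = 0.0179).

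Of the genes next to the members described above, only Fut4 in T2R1 and Slc23a3 in T1R1 were called. Slc23a3, of the nucleobase and ascorbate transporter family, lies 19917 bases from the chromosome 1 interval complete in T2R1 and empty in T3R1. It rose by 0.71 ± 0.21 (SE, n = 4 each; limma, adjusted p = 0.0451), a call that 17 of 23 alternatives lost. Cdkn1b, Tbx5, Foxc2, Yy1, Tgif1 and Sp3 did not pass in any comparison, and BC049762, next to the chromosome 11 member, had a T3R1 difference of 0.73 (limma, adjusted p = 0.0572).

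Of 50 listed long noncoding RNA genes with a name of their own, 24 were tested. In T1R1 2 rose and 1 fell, 12.5% against 9.85% of all features, in T2R1 2 rose, 8.33% against 18.4%, and in T3R1 and between T2R1 and T1R1 limma called 0, with 5 at an unadjusted p under 0.05 in T3R1. Terc, the RNA template of telomerase, read -3.20, -2.16, -2.88 and -2.75 in control, -1.84, -1.52, -2.13 and -1.58 in T1R1 and -1.30, -1.64, -2.30 and -1.78 in T2R1, and rose by 0.98 and 0.99 (limma, adjusted p = 0.0207 and 0.0116). In T3R1, on the slide of the controls, Terc read -3.16, -2.55, -3.01 and -2.59. Pvt1, a host transcript beside Myc, rose by 0.63 and 0.61 (limma, adjusted p = 0.0247 and 0.0175), with means of -1.17 in control and -1.36 in T3R1. Snhg3, a host of small nucleolar RNA, fell by 0.28 in T1R1 (limma, adjusted p = 0.0419). For all of these calls slide and exposure cannot be told apart.

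None of these 5 calls held under every scaling. Both median scaling and the authors' values lost Terc and Pvt1 in T1R1 and T2R1, at limma adjusted p between 0.0608 and 0.35, and Snhg3 was lost with the authors' values (0.352). In T3R1 the 3 with the smallest p were Mir17hg, Peg13 and H19, with differences of -0.51, -0.57 and 0.47 (limma, adjusted p = 0.0614, 0.104 and 0.156). Neither these nor Tug1, with a T3R1 difference of 0.19, passed in any comparison. Of 17 tested genes of nuclear RNA decay, which degrades many such transcripts, limma called 0 in each comparison, with 3 in T1R1, 1 in T2R1 and 3 in T3R1 at an unadjusted p under 0.05. Their median differences ran from -0.07 to -0.03 in the exposed groups.

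Markers of the organ were as labelled. All 8 heart muscle markers were bright on every array, with a summed level from 11.8 to 12.9 in control, 12.4 to 12.6 in T1R1, 12.6 to 12.8 in T2R1 and at most 12.6 in T3R1, and limma called 0 of 8 in each comparison with control, with 1 at an unadjusted p under 0.05, in T3R1. Each heart muscle marker was lowest among the controls on control replicate 1, as in Tnni3, at 8.35 against 9.5, 9.4 and 9.41. Markers of other cells moved with the groups. The 5 neutrophil markers summed to between 2.11 and 3.21 in control, 2.54 and 4.72 in T1R1, 3.70 and 5.51 in T2R1 and 2.01 and 3.68 in T3R1, with 4 of 5 higher in T2R1 and 1 in T1R1. Of 5 nerve markers 4 were lower in T1R1 and 3 in T2R1, with sums from 1.23 to 1.77 in control, 0.42 to 1.17 in T1R1 and 0.55 to 1.07 in T2R1, and Nefl was on no array of T2R1. Of 6 fat markers 3 were lower in T1R1, with sums from 7.49 to 8.18 in control and from 6.96 to 7.63 in T1R1. Liver markers, 5 of 7 tested, ranged from -0.40 to 5.89 over single arrays with 0 called, and 2 of 5 thymus markers were tested, with 0 called. The part of these cells in the differences of the lincRNA probes was not tested.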

How the data were processed

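Per the labels' protocols, total RNA of each heart was extracted with TRIzol and labelled with Cy3. Per the file headers, Feature Extraction 10.7.3.1 made the processed intensity, which is background-subtracted and not normalized between arrays, and the detection flags. The authors deposited a further table of log2 values with quantile-normalized columns, used as an alternative; its making is otherwise not given in the sources used. Depth has no meaning for arrays, and their number limits the precision.

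Outlier spots were left out, log2 values had the 75th percentile of their array subtracted, and repeat spots were averaged by probe. A probe entered the fit if some group had it well above background on its 4 arrays (31390 of 55681), and each gene name or lincRNA interval was represented by its brightest probe, giving 22763 features. limma 3.58.1 in R 4.3.3 fitted the 4 groups, with Benjamini-Hochberg adjustment and a threshold of 0.05; tests were two-sided and the fit was tested on simulated data. The fit had 102 missing values. Names came through RefSeq accessions for 26762 probes. Members, gene lists and tests were chosen with earlier results of these data known. Genes named were, by rule, neighbours of the described members, the 3 neighbours with the smallest p in a comparison with calls, and list genes that passed. Where no listed long noncoding RNA gene passed, those named were among the 3 with the smallest p. Members described were, by rule, the 8 largest on-off differences, for each group 2 others complete there alone, the 4 brightest, and the 2 largest and 2 smallest T3R1 minus control and T2R1 minus T1R1 differences. Replicates are separate hearts per the labels; p-values measure their spread. Alternatives were normexp (offset 50), quantile and median scaling, the authors' values, no filter, the replicate block, neighbours within 20000 bases, a laxer detection flag and each array left out; leaving out control replicate 1 with T1R1 replicate 3, and the test of the always-detected probes of member intervals, were added after seeing the data.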

Additional observations from a re-analysis of the deposited data

Results flagged for a closer look

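In groups of 4 arrays, an array was picked out where its gap to the nearest other array was above Dixon's 95% critical share of the range of the group. Over 100 such groups 13 arrays were picked out, where chance gives about 1 in 20 groups. All but 1 of the 13 were at described members, which were chosen for a large difference or for brightness. Such a choice favours outlying arrays, so the number cannot be set against the chance rate. Among the counts of detected probes the array picked out was T3R1 replicate 1, with 1375. The much lower T1R1 replicate 3, with 262, was not picked out by this measure.

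Control replicate 1 stood apart from the other controls at the members of chr5:35893909-35899497 (-1.94), chr17:10057283-10075014 (-2.99) and chr9:14460976-14488051 (0.38), each time toward T3R1. T1R1 replicate 3 was low at chr6:121036929-121037581 (-3.44), chr12:110003268-110030953 (-1.74) and chr17:88225376-88238756 (-2.80), and T3R1 replicate 1 was low at the chromosome 12 member (-4.40).

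Single high arrays were T2R1 replicate 4 at chr5:120269342-120279542 (-0.61) and at chr17:71202950-71229883 (1.18), T2R1 replicate 1 at chr2:72818943-72826893 (0.79) and control replicate 3 at chr15:96091428-96115684 (0.0771). At chr3:10088209-10089038, T3R1 replicate 3 (-3.90) was above the other T3R1 arrays. Their causes were not tested.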

How the results depend on the processing

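The count of 2589 probes ran from 1927 to 2972 when 1 array was left out, and that of probes complete in 1 group and empty in another from 124 to 223. Leaving out an array cannot lower the second count. Probes complete in control ran from 904 to 2206, in T1R1 from 129 to 1325, in T2R1 from 1158 to 2771 and in T3R1 from 447 to 2150, each with an end without T1R1 replicate 3 or a replicate of the group itself; for T1R1 the lowest was without T3R1 replicate 1. With the laxer flag T1R1 was complete for 840. Without both control replicate 1 and T1R1 replicate 3 there were 322 on-off probes, and control, T1R1, T2R1 and T3R1 were complete for 913, 1325, 1158 and 447.

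The median T1R1 minus control difference of the probes was 0.16 with normexp, -0.0473 with quantile normalization, -0.0148 with median scaling and -0.010 in the authors' values, and that of T2R1 0.216, 0.227, 0.226 and 0.0854. The T3R1 and T2R1 minus T1R1 medians kept their sign in every alternative run.

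Neighbouring genes called in T1R1 were 515 with median scaling, 80 in the authors' values, 25 without the filter, 31 within 20000 bases and 132 without both arrays, and 21 to 146 with 1 array left out (lowest without T1R1 replicate 4, highest without control replicate 1). In T2R1 they were 447 with median scaling, 68 within 20000 bases, 203 without both arrays, and 66 to 200 (without T2R1 replicate 3 and control replicate 1). In T3R1 they were 0 with median scaling and without the filter, 19 in the authors' values, 4 within 20000 bases, 329 without both arrays, and 0 to 327 (0 without control replicate 2, 327 without control replicate 1).

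Named long noncoding RNA genes called in T1R1 were 0 with normexp and in the authors' values, 1 with quantile normalization, 14 with median scaling and 0 to 4 with 1 array left out. In T2R1 they were 13 with median scaling, 5 without both arrays and 1 to 5, and in T3R1 5 without both arrays and 0 to 5. Member intervals called through an always-detected probe were 95, 127 and 130 in T1R1 with normexp, quantile normalization and the authors' values, and 235 in T2R1 with median scaling. In T3R1 they were 1 with median scaling and without the filter, 9 in the authors' values, 198 without both arrays and 0 to 193.

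Same-numbered arrays did not pair: deviations correlated between -0.3244 and 0.3912 over 24 pairs, and 5 of 16 arrays correlated best with their own number. With the replicate block 0 neighbouring genes and 2 member intervals were called in T3R1. Signals near background limit all of these probes.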
